A study of Homo sapiens with 16 samples.

Results

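The 10 genes described here are imprinted genes that lie outside the 11p15 cluster: MKRN3, MAGEL2, NDN and SNRPN of 15q11-q13, MEG3 and DLK1 of 14q32, PEG3 of 19q13, PEG10 and MEST of 7q, and NNAT of 20q. They were taken by name from a list, all 10 were found among the 23459 genes of the deposited count table, and 8 of them passed the filter on low counts that left 15967 genes for testing. MAGEL2 and SNRPN did not pass and are given by their counts. The libraries came from Be(2)-C and from IMR5-75, 2 lines derived from neuroblastoma, each represented by 4 groups of 2 libraries, so that 16 libraries entered the comparisons. The groups were DMSO alone, DAC at 1 µM for 72 h, EPZ-6438 at 1 µM for 96 h, and both drugs at those doses and times, and all cells were grown in RPMI medium with fetal calf serum. DAC is the usual abbreviation of decitabine, a cytidine analogue that traps DNA methyltransferases, and EPZ-6438 is tazemetostat, an inhibitor of the histone H3 lysine methyltransferase EZH2. Each line is a single established culture, no label says that the 2 libraries of a group came from separate cultures, and the p-values therefore reflect library-to-library spread alone, possibly a technical one.

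An imprinted gene is transcribed mainly from the copy inherited from one parent. Which copy is silent depends on DNA methylation laid down in the egg or the sperm at a control region. DNMT1 together with UHRF1 copies that methylation at each cell division. MKRN3, MAGEL2, NDN, SNRPN, DLK1, PEG3, PEG10, MEST and NNAT are textbook paternally expressed genes, and MEG3 is a maternally expressed noncoding RNA whose locus is controlled together with DLK1. Many of these genes are active in the fetus, the placenta or the nervous system, and DLK1 marks neuroendocrine cells of the sympathetic lineage, the lineage of neuroblastoma.

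Promoter sequences are shown with their CG pairs, which can carry DNA methylation. RefSeq windows on GRCh38.p14, running from 250 bases before to 50 bases after the annotated start, were matched for 6 of the 10 genes. Shown are those of the 4 genes among them that passed the filter on low counts, 5′ to 3′ on the gene's own strand, with each CG pair in capitals. The windows are chr15:23565424-23565723 on the plus strand for MKRN3, chr15:23687256-23687555 on the minus strand for NDN, chr14:100825858-100826157 on the plus strand for MEG3 and chr7:130491835-130492134 on the plus strand for MEST. MEG3 and MEST have 3 and 5 annotated windows, and the one with the most CG pairs is shown.
MKRN3: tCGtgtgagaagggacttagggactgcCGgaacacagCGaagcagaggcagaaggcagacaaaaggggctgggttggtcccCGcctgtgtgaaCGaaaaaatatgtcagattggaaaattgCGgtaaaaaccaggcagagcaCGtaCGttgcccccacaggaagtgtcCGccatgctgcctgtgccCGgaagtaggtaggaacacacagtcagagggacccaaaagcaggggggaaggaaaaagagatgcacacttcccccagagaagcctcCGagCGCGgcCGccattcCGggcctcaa
NDN: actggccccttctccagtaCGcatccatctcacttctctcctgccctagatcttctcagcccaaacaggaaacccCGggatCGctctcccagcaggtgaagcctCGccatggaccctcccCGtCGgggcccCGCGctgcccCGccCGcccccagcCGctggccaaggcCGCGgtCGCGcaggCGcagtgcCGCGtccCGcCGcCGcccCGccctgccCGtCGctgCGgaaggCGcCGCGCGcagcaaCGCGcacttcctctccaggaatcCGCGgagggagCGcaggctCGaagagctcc
MEG3: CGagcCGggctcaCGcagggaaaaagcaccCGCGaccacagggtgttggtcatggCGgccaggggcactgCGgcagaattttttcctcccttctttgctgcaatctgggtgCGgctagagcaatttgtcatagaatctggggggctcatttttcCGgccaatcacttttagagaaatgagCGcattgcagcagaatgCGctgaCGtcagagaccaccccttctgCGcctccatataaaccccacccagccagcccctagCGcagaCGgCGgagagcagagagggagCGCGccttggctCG
MEST: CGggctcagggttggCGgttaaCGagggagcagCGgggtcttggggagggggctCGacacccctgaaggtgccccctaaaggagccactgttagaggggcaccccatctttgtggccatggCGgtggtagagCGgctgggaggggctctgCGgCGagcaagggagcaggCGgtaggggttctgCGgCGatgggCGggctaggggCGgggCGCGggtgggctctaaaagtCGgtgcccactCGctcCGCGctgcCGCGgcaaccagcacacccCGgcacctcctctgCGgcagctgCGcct
The MKRN3 window holds 15 CG pairs, close to the median of 14 over the 35116 windows of all genes. MEG3 has 19 and MEST has 25. NDN has 35, more than 85.9% of all windows. The hexamer TGCCGC, the core of the site bound by the imprint-keeping zinc finger protein ZFP57, was searched on both strands. It occurs 3 times in the MEST window, 1 time in the NDN window and 1 time in the MEG3 window, and 16.7% of all windows hold it at least once. The MKRN3 window does not hold these letters. Such matches describe the letters only, and no methylation was measured.

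Total counts ran from 9539557 to 14032155 per library, so that 3 counts, the limit a count of 0 allows, stood between 0.206 and 0.315 CPM (counts relative to library size, scaled by the trimmed mean of M values). Of 11 noradrenergic neuroblastoma markers, 11 exceeded 1 CPM in Be(2)-C and 10 in IMR5-75, where TH did not. The noradrenergic sum in Be(2)-C was 10126 to 10286 CPM in DMSO and 8438 to 8494 CPM after DAC. In IMR5-75 it was 3279 to 3710 CPM in DMSO and 2921 to 3527 CPM after DAC, which overlap. The summed level of 7 fibroblast markers in Be(2)-C was 276 to 279 CPM in DMSO and 238 to 250 CPM after DAC. There it was 232 to 238 CPM after EPZ-6438 and 269 to 277 CPM after both. In IMR5-75 that sum was 76.3 to 79.5 CPM in DMSO, 282 to 290 CPM after DAC, 114 to 116 CPM after EPZ-6438 and 499 to 519 CPM after both, mostly COL3A1, and 0 of the 7 were at 0. The 7 Schwann and glial markers summed to 3.62 to 5.16 CPM in IMR5-75 DMSO, 16.5 to 16.6 CPM after DAC and 21.6 to 24.1 CPM after both. In Be(2)-C they summed to 8.63 to 10.4 CPM in DMSO, 12.01 to 14.3 CPM after DAC and 13.7 to 14.6 CPM after both. The haematopoietic sum in IMR5-75 was 5.60 to 5.72 CPM in DMSO, 8.50 to 9.51 CPM after DAC and 10.6 to 11.1 CPM after both. In Be(2)-C that sum was 5.17 to 5.51 CPM in DMSO, 6.01 to 7.04 CPM after DAC and 5.52 to 6.29 CPM after both. The endothelial sum was 1.35 to 1.70 CPM in DMSO and 3.47 to 5.07 CPM after DAC in IMR5-75, and 1.27 to 1.56 CPM and 2.30 to 3.24 CPM in Be(2)-C. After EPZ-6438 alone the Schwann and glial sum was 11.5 to 12.1 CPM in Be(2)-C and 7.16 to 8.51 CPM in IMR5-75. Both ranges lay above DMSO. The endothelial sum after EPZ-6438 was 2.12 to 3.15 CPM in IMR5-75, above DMSO, and 0.648 to 1.27 CPM in Be(2)-C, not above it. The Schwann and glial, the endothelial and the haematopoietic sums therefore rose with DAC in both lines, and the first of these also with EPZ-6438. The fibroblast sum rose with DAC in IMR5-75, while the fibroblast and noradrenergic sums fell with DAC in Be(2)-C. The part of these lists in the changes of the listed genes below was not tested. In such bulk libraries, more cells transcribing a gene and more RNA per cell cannot be told apart.

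The untreated lines differed in which imprinted genes they transcribed. NNAT and MEST were high in IMR5-75 and low in Be(2)-C, and DLK1, MEG3 and PEG10 showed the reverse. NDN was low in Be(2)-C, at a mean of 2.10 CPM, and held 0 counts in IMR5-75. A gene was called where the adjusted p of edgeR's quasi-likelihood test (Benjamini-Hochberg over all genes tested) was under 0.05, and 63.2% of all genes tested were called between the untreated lines, 32% higher and 31.2% lower in IMR5-75. Of the 8 tested genes, 2 were higher in IMR5-75, 4 were lower, and MKRN3 and PEG3 were not called. MKRN3 differed by 0.01 ± 0.56 on the log2 scale (SE). Each such SE, here and below, is the log2 change divided by the square root of the test's F statistic. It can understate the error where a group holds few counts. MEG3 and PEG10 held 7 and 4 counts over both untreated IMR5-75 libraries, so their differences are given without it. The log2 difference, IMR5-75 minus Be(2)-C, was 7.68 ± 0.20 for NNAT (adjusted p = 5.15e-18) and 5.62 ± 0.24 for MEST (9.85e-15). It was -6.65 ± 0.36 for DLK1 (7.02e-13), -9.57 for MEG3 (1.28e-16) and -10.67 for PEG10 (1.4e-17). Without IMR5-75 DMSO library 2 it was -8.68 for MEG3 and -9.81 for PEG10, and without Be(2)-C DMSO library 1 it was 6.29 for MEST.

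**Figure D1:**
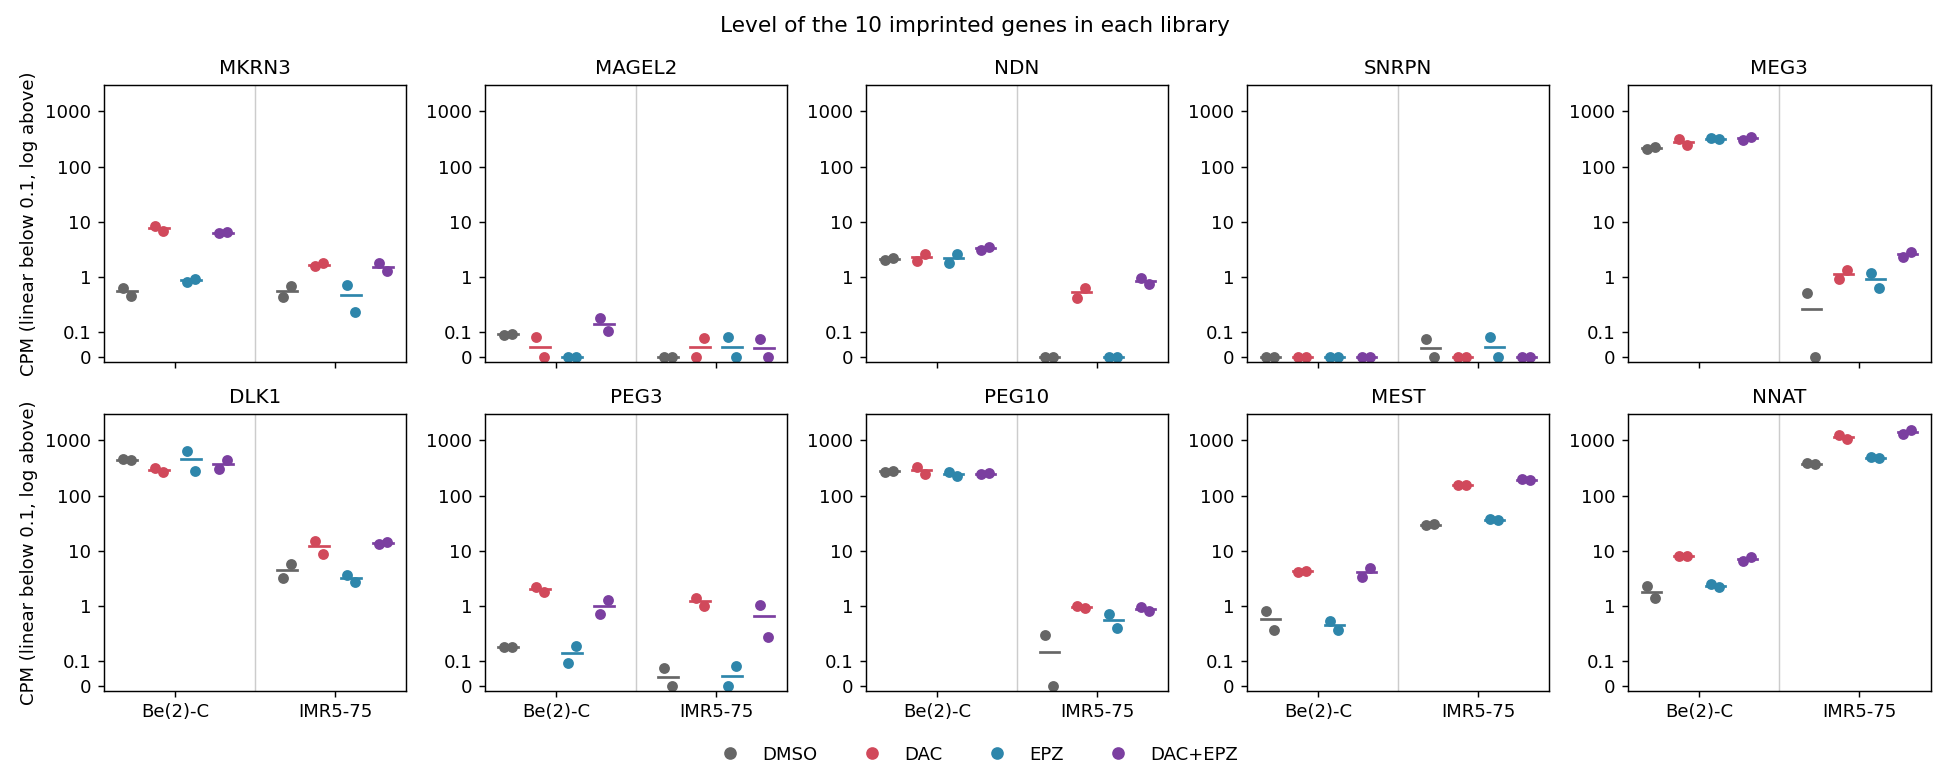
Level of each of the 10 genes in every library, in CPM, on an axis that is linear below 0.1 and logarithmic above; points are libraries, short lines are means of 2 libraries, and colours mark the treatment. The DAC and DAC+EPZ libraries lie above the DMSO libraries in both lines for MKRN3, MEG3, PEG3, MEST and NNAT, and in IMR5-75 also for NDN, DLK1 and PEG10.

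All of the tested genes rose under DAC in IMR5-75, and a part of them in Be(2)-C. In Be(2)-C, 4 of the 8 rose after DAC (MEST, MKRN3, NNAT, PEG3) and 0 fell, where 6.7% of all genes tested were called, 3.73% higher and 2.97% lower. Without the filter on low counts DLK1 was also called, as lower. In IMR5-75, 8 of 8 rose after DAC, where 33.7% of all genes were called and 19.9% were called higher. The MKRN3, MEG3, DLK1 and PEG10 calls there each ended when some single library was left out, as given below. The median log2 change of the 8 was 1.24 in Be(2)-C, against 0.02 over all genes, and 2.18 in IMR5-75, against 0.02. EPZ-6438 alone raised 1 of the 8 in Be(2)-C, MEG3, where 10.2% of all genes were called, 5.35% higher and 4.85% lower. In IMR5-75 it raised 0 of the 8, where 1.98% of all genes were called, 1.63% higher and 0.344% lower, and by DESeq2's Wald test the count was also 0. At an unadjusted p under 0.05 it was 4, MEG3, PEG10, MEST and NNAT. With both drugs, 5 of the 8 rose in Be(2)-C, the 4 above and MEG3, where 23.7% of all genes were called, 13.2% higher and 10.4% lower. In IMR5-75, 8 of 8 rose with both drugs, where 46.2% of all genes were called, 25.7% higher and 20.4% lower. The MKRN3, PEG10 and PEG3 calls there each ended when some single library was left out. Within a line these comparisons share their 2 DMSO libraries. The filter was run over all 16 libraries. MKRN3 and PEG3 held at most 10 counts in each library without DAC and passed it only through libraries with DAC. Higher values with DAC were thus favoured in advance for MKRN3 and PEG3. The counts out of 8, and the p-values of MKRN3 and PEG3 under DAC, are therefore descriptions in both lines.

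**Figure D2:**
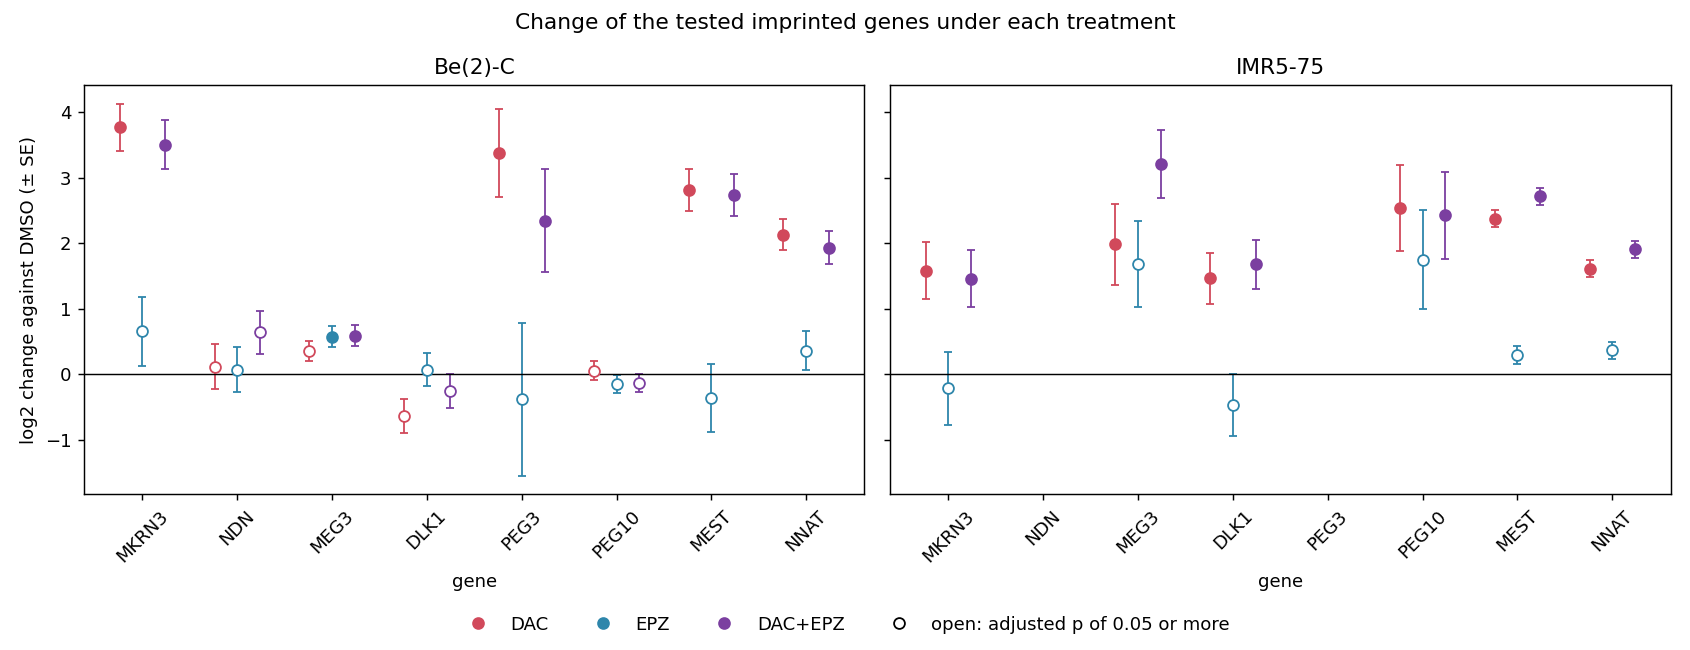
Log2 change against DMSO (± SE as defined above) of the 8 tested genes in each line, with filled points where the adjusted p was under 0.05. NDN and PEG3 are left out in IMR5-75, where their DMSO libraries held 0 and 1 counts in all. For MEG3 and PEG10 in IMR5-75, with 7 and 4 DMSO counts, the SE can understate the error. The EPZ-6438 points are open except that of MEG3 in Be(2)-C.

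On 15q11-q13, MKRN3, an intronless gene for a ring finger protein that restrains the onset of puberty, rose after DAC in both lines. MKRN3 passed the filter on low counts only through libraries with DAC, so its tests and lack of overlap under DAC are descriptions. In Be(2)-C it stood at 0.634 and 0.459 CPM in DMSO libraries 1 and 2, at 8.39 and 6.76 CPM after DAC, at 0.817 and 0.925 CPM after EPZ-6438 and at 6.23 and 6.40 CPM after both. The DAC and DAC+EPZ libraries lay above all the others, with no overlap. The log2 change was 3.77 ± 0.36 after DAC (adjusted p = 9.77e-07) and 3.50 ± 0.37 after both (adjusted p = 7.71e-07). In IMR5-75 it stood at 0.442 and 0.673 CPM in DMSO, at 1.56 and 1.79 CPM after DAC, at 0.709 and 0.236 CPM after EPZ-6438 and at 1.76 and 1.31 CPM after both. Here too every library with DAC lay above every library without it. The log2 change there was 1.58 ± 0.43 after DAC (adjusted p = 0.0073) and 1.45 ± 0.44 after both (adjusted p = 0.00925). The first call ended without IMR5-75 DMSO library 1 (adjusted p = 0.0804), and the second without that library (0.0846) or DAC+EPZ library 1 (0.0643).

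NDN, also intronless, encodes necdin, a growth suppressor of post-mitotic neurons. In Be(2)-C it was present in every group, at 1.99 and 2.20 CPM in DMSO, 1.97 and 2.59 CPM after DAC, 1.82 and 2.59 CPM after EPZ-6438 and 3.12 and 3.46 CPM after both. The single-drug groups overlapped with DMSO and those under both drugs lay above it, but none was called, with a log2 change of 0.64 ± 0.33 under both drugs (adjusted p = 0.171). In IMR5-75, NDN held 0 counts in both DMSO and both EPZ-6438 libraries, 6 and 8 counts after DAC and 13 and 11 counts after both. Against 3 counts over the DMSO group, it was at least 4.41-fold higher after DAC (adjusted p = 0.00196) and at least 7.23-fold higher after both (adjusted p = 1.31e-04). Untreated IMR5-75 was at least 17.8-fold lower than untreated Be(2)-C (adjusted p = 5.74e-07). The level reached under both drugs, 0.954 and 0.756 CPM, stayed below that of untreated Be(2)-C.

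The remaining 15q11-q13 genes on the list had few or no counts. MAGEL2, which encodes a regulator of endosomal protein recycling and is affected in Prader-Willi and Schaaf-Yang syndromes, held 0 to 2 counts in each of the 16 libraries. SNRPN, which encodes a protein of the spliceosome's small nuclear ribonucleoproteins and starts at the imprinting centre of the region, held 0 counts in 14 libraries and 1 count each in IMR5-75 DMSO library 1 and EPZ-6438 library 1. SNRPN shares its exons with SNURF, which held 0 to 4 counts per group, and a counter that discards reads on overlapping genes leaves both near 0, so their counts are uncertain. The noncoding transcripts downstream of SNRPN on the same strand were present in untreated Be(2)-C, with PAR5 at 40.3 ± 3.6 CPM (SD, n = 2), IPW at 22.2 ± 3.6 CPM and PAR-SN at 19.4 ± 2.5 CPM. In untreated IMR5-75 they held 2, 1 and 0 counts over both libraries, and no drug group there held more than 3 counts of any of them. In Be(2)-C, PAR5 rose by 0.60 ± 0.16 (adjusted p = 0.0300) and PAR-SN by 0.77 ± 0.18 (adjusted p = 0.0128) after DAC alone. Both calls ended without DMSO library 1 (0.296 and 0.207), DMSO library 2 (0.101 and 0.0505) or DAC library 1 (0.303 and 0.138). UBE3A, the maternally expressed ubiquitin ligase of Angelman syndrome, was not called under any drug and stood at 238 ± 7.2 CPM in untreated Be(2)-C and 97.5 ± 12 CPM in untreated IMR5-75. Of 9 tested neighbours of the region that are not imprinted, 0 rose and 1 fell after DAC in Be(2)-C. In IMR5-75, 0 rose and 3 fell, where 2.97% and 13.8% of all genes were called lower in the 2 lines.

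On 14q32, MEG3, a long noncoding RNA described as a growth suppressor, was abundant in Be(2)-C and near the detection limit in IMR5-75. In Be(2)-C it stood at 204 and 227 CPM in DMSO, 309 and 242 CPM after DAC, 326 and 317 CPM after EPZ-6438 and 306 and 344 CPM after both. All treated libraries lay above the DMSO libraries. The log2 change was 0.58 ± 0.15 after EPZ-6438 (adjusted p = 0.0200), 0.59 ± 0.15 after both (adjusted p = 0.00794) and 0.35 ± 0.15 after DAC, which was not called (adjusted p = 0.183). The EPZ-6438 call ended without DMSO library 1 (0.233), DMSO library 2 (0.0788), EPZ-6438 library 1 (0.0651) or EPZ-6438 library 2 (0.0529). The call under both drugs ended without DMSO library 1 (0.121) or DAC+EPZ library 2 (0.0912).

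In IMR5-75, MEG3 held 7 and 0 counts in DMSO, 13 and 17 after DAC, 15 and 8 after EPZ-6438 and 32 and 42 after both. Every treated library lay above both DMSO libraries, which differed from each other. The log2 change was 1.98 ± 0.62 after DAC (adjusted p = 0.0175), 3.21 ± 0.51 after both (adjusted p = 3.01e-05) and 1.69 ± 0.66 after EPZ-6438, which was not called (adjusted p = 0.200). With so few counts in DMSO, these SEs can understate the error. Without DMSO library 2, the one at 0 counts, the DAC change fell to 1.09 and lost its call (adjusted p = 0.172), and the change under both drugs was 2.31 (adjusted p = 6.33e-04). Without DAC library 2 the DAC call also ended (adjusted p = 0.103). Without DMSO library 1 no reference count was left, MEG3 was called after EPZ-6438 as well, and the other calls held. Even under both drugs the mean, 2.62 ± 0.38 CPM, was far below the 216 ± 16 CPM of untreated Be(2)-C.

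DLK1 encodes a transmembrane protein related to the Notch ligands. Be(2)-C cells had 451 and 435 CPM in DMSO, 311 and 261 CPM after DAC, 652 and 279 CPM after EPZ-6438 and 306 and 438 CPM after both. The 2 EPZ-6438 libraries lay on either side of DMSO, only the DAC libraries lay wholly below it, and none of the 3 groups was called, the DAC change being -0.63 ± 0.26 (adjusted p = 0.153). Without the filter on low counts that fall was called. In IMR5-75 the levels were 3.24 and 5.64 CPM in DMSO, 15.2 and 8.89 CPM after DAC, 3.63 and 2.67 CPM after EPZ-6438 and 13.5 and 14.6 CPM after both. Both groups with DAC lay above both groups without it. The log2 change was 1.46 ± 0.39 after DAC (adjusted p = 0.00573) and 1.68 ± 0.38 after both (adjusted p = 0.00105). The DAC call ended without DMSO library 1 (0.0874) or DAC library 1 (0.109).

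RTL1, a retrotransposon-derived gene of the placenta on 14q32, and the noncoding MEG8, SNORD113-1 and SNORD114-1, with BEGAIN, gave 0 of 5 called by edgeR's test under DAC, EPZ-6438 or both in either line. At an unadjusted p under 0.05 there was 1, BEGAIN after DAC in Be(2)-C. All 5 were lower in untreated IMR5-75: RTL1 stood at 29.4 ± 1.5 CPM in Be(2)-C and held 1 count there, and MEG8 stood at 13.1 ± 0.38 CPM in Be(2)-C and held 2. Of 7 tested neighbours that are not imprinted, 0 rose and 1 fell after DAC in IMR5-75, where 13.8% of all genes were called lower. In Be(2)-C 0 were called, where 6.7% of all genes were called.

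**Figure D3:**
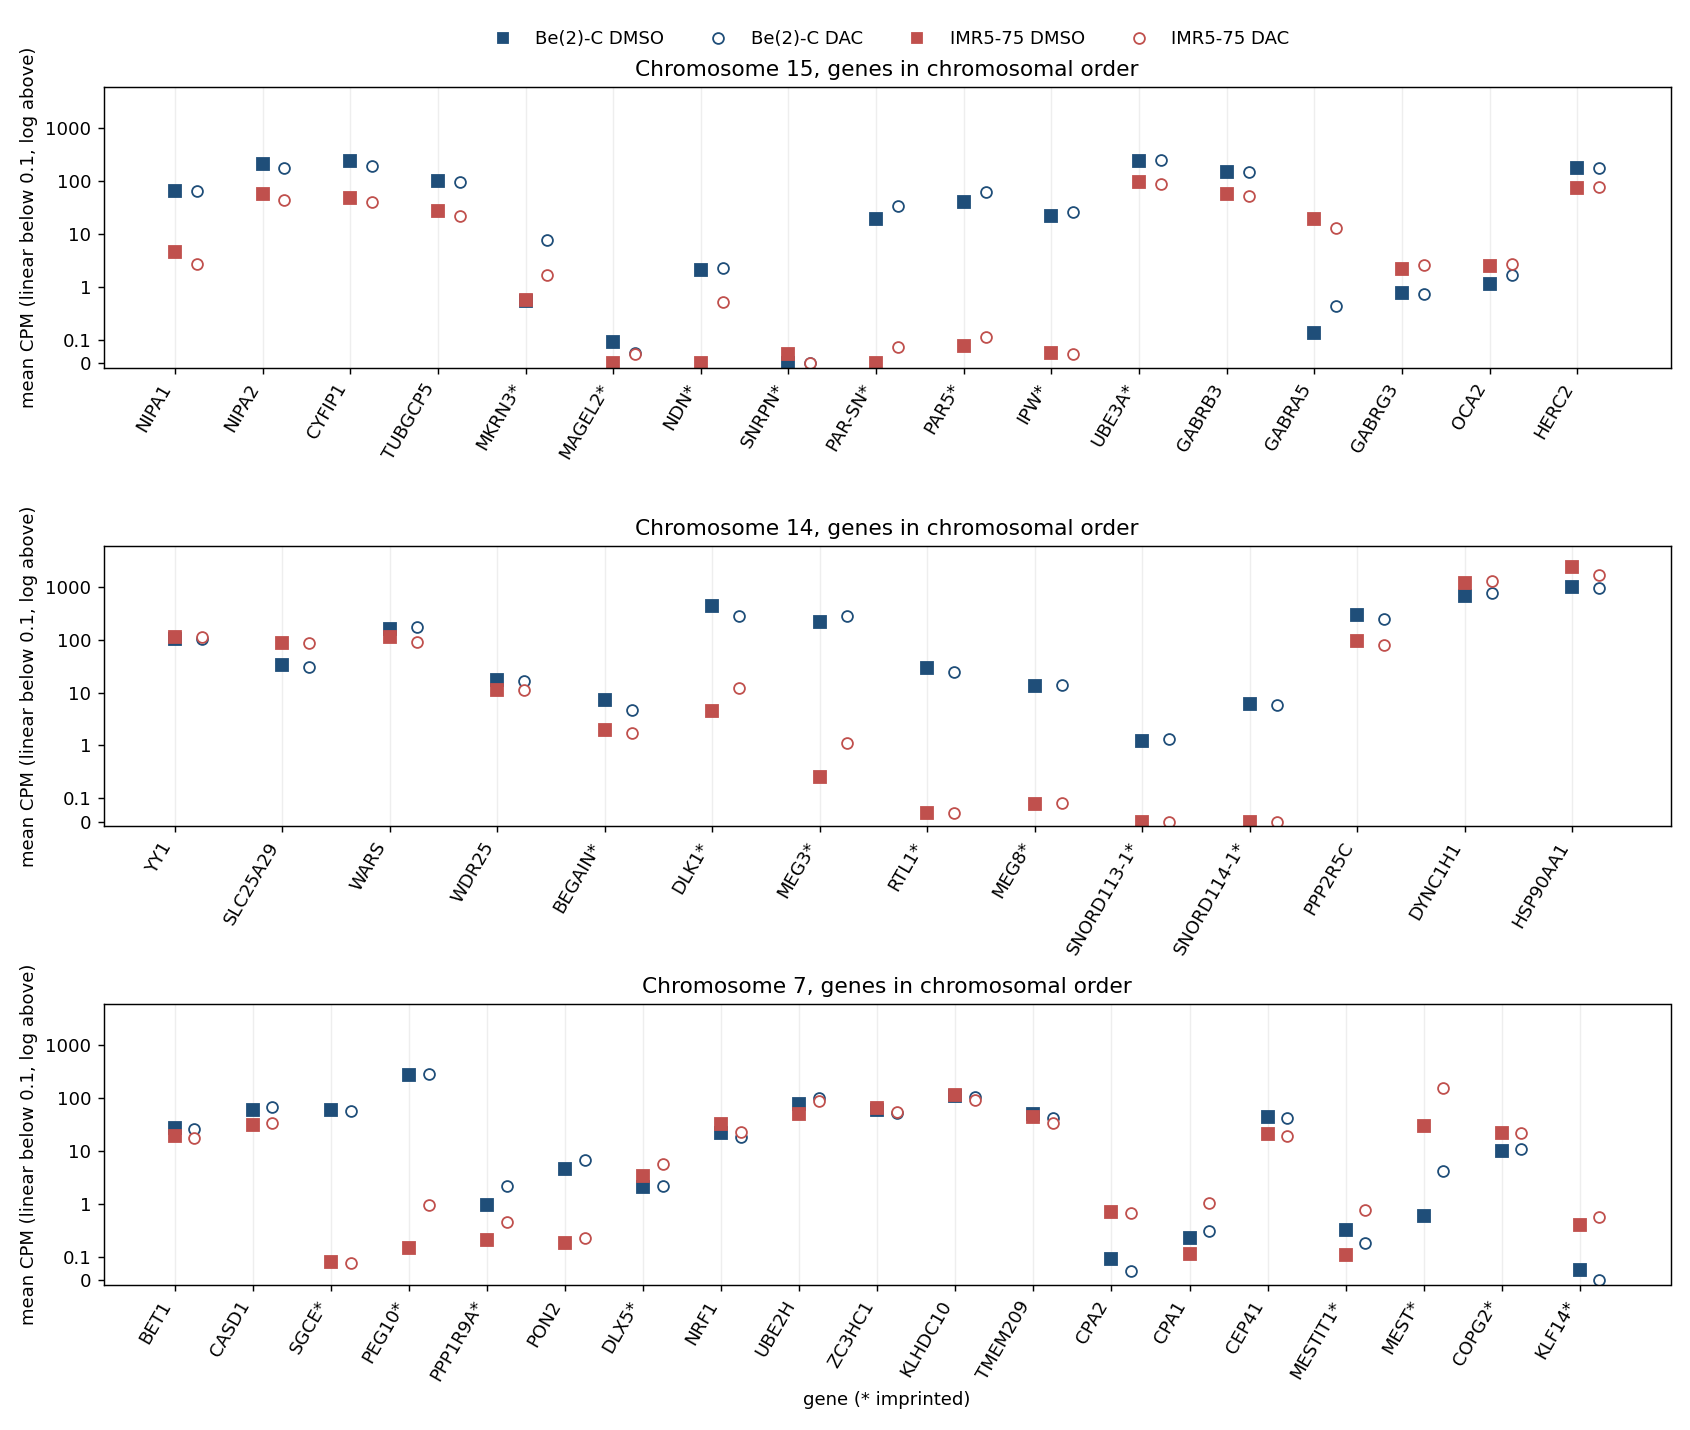
Mean CPM (2 libraries) of genes in chromosomal order on chromosomes 15, 14 and 7, on an axis that is linear below 0.1 and logarithmic above, in DMSO (squares) and after DAC (open circles), with asterisks on imprinted genes. At PAR-SN, PAR5, IPW, RTL1, MEG8, SNORD113-1, SNORD114-1 and SGCE, IMR5-75 lies at or below 0.113 CPM both in DMSO and after DAC, while MKRN3, NDN, DLK1, MEG3, PEG10 and MEST of that line lie higher after DAC.

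On 19q13, PEG3, a zinc finger protein of imprinted growth control and maternal behaviour, was close to silent in both untreated lines. PEG3 passed the filter on low counts only through libraries with DAC, so its tests and lack of overlap under DAC are descriptions. Be(2)-C libraries held 2 and 2 counts in DMSO, 27 and 19 after DAC, 1 and 2 after EPZ-6438 and 8 and 12 after both. The log2 change was 3.38 ± 0.67 after DAC (adjusted p = 0.00362) and 2.34 ± 0.78 after both (adjusted p = 0.0342). These rest on 4 control counts, and the DAC call ended without DMSO library 1 or 2. The call under both drugs ended without DMSO library 1, DMSO library 2 or DAC+EPZ library 2, and by DESeq2's Wald test. In IMR5-75, PEG3 held 1 and 0 counts in DMSO, 20 and 13 after DAC, 0 and 1 after EPZ-6438 and 14 and 4 after both. Its level after DAC was 31.2 times that in DMSO, with an exact 95% counting interval of 5.22 to 1268 (adjusted p = 5.66e-04). Its fitted log2 change was 4.63, or 3.86 without DMSO library 2, and without DMSO library 1 no reference count was left; both stayed called. Under both drugs the ratio was 16.3 (2.57 to 678, adjusted p = 0.00634), with a fitted log2 change of 3.72. That call ended without DMSO library 2 (0.0564), where the change was 2.94, and without DAC+EPZ library 1 (0.140), where it was 2.57. Without DAC+EPZ library 2 the change was 4.42. In either line the groups with DAC did not overlap with those without it. PEG3 shares its first exons with ZIM2, which held 0 to 4 counts per group, so reads may have been lost from both.

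Of 9 tested 19q13 neighbours that are not imprinted, 3 rose and 0 fell after DAC in each line. Of all genes, 3.73% in Be(2)-C and 19.9% in IMR5-75 were called higher. ZNF470 was among the 3 in both lines. It rose from 9.88 and 12.1 CPM to 18.5 and 18.9 CPM in Be(2)-C (adjusted p = 0.0094) and from 18.4 ± 0.27 to 26.4 ± 1.5 CPM in IMR5-75 (adjusted p = 0.0148). The Be(2)-C call ended without DMSO library 1 (0.190) or DAC library 1 (0.0752), and the IMR5-75 call without DMSO library 1 (0.0684), DMSO library 2 (0.0642) or DAC library 2 (0.0720). ZNF331, an imprinted zinc finger gene of the same arm, held 645 counts in untreated Be(2)-C and 3 in untreated IMR5-75. It reached 21 counts after DAC there, a ratio of 6.61 with an interval of 1.97 to 34.6 (adjusted p = 0.0120). That call ended without DMSO library 2 (0.110, fitted log2 change 1.76 in place of 2.63) or DAC library 2 (0.0934), and without DMSO library 1 no reference count was left.

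On 7q, PEG10, a gene derived from a retrotransposon and needed in the placenta, was abundant in Be(2)-C at 270 and 276 CPM in DMSO, 322 and 246 CPM after DAC, 268 and 225 CPM after EPZ-6438 and 243 and 254 CPM after both. None of these groups was called, and the log2 change after DAC was 0.06 ± 0.14. In IMR5-75 it held 4 and 0 counts in DMSO, 14 and 12 after DAC, 9 and 5 after EPZ-6438 and 13 and 12 after both. All treated libraries lay above both DMSO libraries. The log2 change was 2.54 ± 0.66 after DAC (adjusted p = 0.00507) and 2.42 ± 0.67 after both (adjusted p = 0.0051). With so few counts in DMSO, these SEs can understate the error. Without DMSO library 2, at 0 counts, these fell to 1.67 (adjusted p = 0.0648) and 1.54 (adjusted p = 0.0677), and without DMSO library 1 no reference count was left. SGCE, the sarcoglycan gene that shares the PEG10 control region and lies head to head with it, stood at 59.7 ± 1.8 CPM in untreated Be(2)-C and held 2 counts in untreated IMR5-75, 2 after DAC, 9 after EPZ-6438 and 6 after both, with 0 of the 3 treatments called.

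MEST, also on 7q, encodes a member of the alpha/beta-hydrolase fold family. Be(2)-C libraries had 0.816 and 0.367 CPM in DMSO, 4.11 and 4.35 CPM after DAC, 0.545 and 0.370 CPM after EPZ-6438 and 3.29 and 4.82 CPM after both. In IMR5-75, at levels far above these, it stood at 28.9 and 30.3 CPM in DMSO, 153 and 155 CPM after DAC, 36.8 and 35.7 CPM after EPZ-6438 and 198 and 191 CPM after both. In each line every library with DAC lay above every library without it. The log2 change after DAC was 2.81 ± 0.32 in Be(2)-C (adjusted p = 7.59e-06) and 2.38 ± 0.13 in IMR5-75 (adjusted p = 1.92e-11), and after both drugs 2.74 ± 0.33 (adjusted p = 2.91e-06) and 2.72 ± 0.13 (adjusted p = 2.11e-12). Without Be(2)-C DMSO library 1 the Be(2)-C changes were 3.47 and 3.40. The difference between the lines in the DAC change was -0.44 ± 0.37 and was not called (adjusted p = 0.608). The antisense transcript MESTIT1 lies within MEST, and since the strand setting of the counting is not given in the sources used here, reads of both may not be told apart. MESTIT1 held 3 counts in IMR5-75 DMSO and 21 after DAC, a ratio of 6.61 (1.97 to 34.6, adjusted p = 0.0157). That call ended without DMSO library 2 (0.143, fitted log2 change 1.76 in place of 2.62), without DAC library 1 (0.104) and by DESeq2's Wald test (0.0879), and without DMSO library 1 no reference count was left.

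On 20q, NNAT, which encodes neuronatin, a small membrane protein of the developing brain and of endocrine cells, rose after DAC in both lines. Levels in Be(2)-C were 2.27 and 1.38 CPM in DMSO, 8.06 and 7.97 CPM after DAC, 2.45 and 2.22 CPM after EPZ-6438 and 6.50 and 7.55 CPM after both. In IMR5-75 it stood at 387 and 368 CPM in DMSO, 1270 and 1036 CPM after DAC, 500 and 471 CPM after EPZ-6438 and 1300 and 1527 CPM after both. All libraries with DAC lay above all without it in each line. The log2 change after DAC was 2.13 ± 0.24 in Be(2)-C (adjusted p = 6.94e-06) and 1.61 ± 0.13 in IMR5-75 (adjusted p = 3.5e-09), and after both drugs 1.93 ± 0.25 (adjusted p = 6.68e-06) and 1.91 ± 0.13 (adjusted p = 2.1e-10). These calls held without each library in turn. After EPZ-6438 alone both IMR5-75 libraries lay above DMSO, but the change of 0.36 ± 0.12 was not called (adjusted p = 0.141). NNAT lies inside an intron of BLCAP, which rose by 0.32 ± 0.12 in IMR5-75 after DAC (adjusted p = 0.0424). The BLCAP call ended in 6 alternatives, among them without DMSO library 2 (0.397), DAC library 1 (0.109) and DAC library 2 (0.105). L3MBTL1, an imprinted chromatin reader of 20q, rose in IMR5-75 from 3.99 ± 0.43 to 9.03 ± 0.62 CPM under both drugs (adjusted p = 2.16e-04).

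The drugs were also compared with their combination. Adding EPZ-6438 to DAC gave 0 of the 8 called in each line, where 5.44% of all genes in Be(2)-C and 1.94% in IMR5-75 were called. At an unadjusted p under 0.05 there was 1 in Be(2)-C, PEG3, and 3 in IMR5-75, MEG3, MEST and NNAT. The MEG3 change of 1.23 ± 0.37 in IMR5-75 (adjusted p = 0.0977) was called by DESeq2's Wald test and without the filter on low counts. Adding DAC to EPZ-6438 raised MEST, MKRN3 and NNAT in Be(2)-C, where 4.21% of all genes were called, 2.84% higher and 1.37% lower. In IMR5-75 it raised 7 of the 8, all but PEG10, where 37.6% of all genes were called and 20.7% called higher. Largest in size there were MEST at 2.42 ± 0.13 (adjusted p = 1.13e-11) and DLK1 at 2.15 ± 0.40 (adjusted p = 2.46e-04), leaving aside NDN and PEG3 with 0 and 1 EPZ-6438 counts. MKRN3 lost this call without EPZ-6438 library 2 (0.103) and moved to 2.67 from 1.67 without EPZ-6438 library 1, MEG3 lost it without EPZ-6438 library 2 (0.0717), and PEG3 without DAC+EPZ library 1 (0.155) or EPZ-6438 library 1 (0.0778). For the interaction, which asks whether the change under both drugs differs from the sum of the single changes, 0 of the 8 were called in either line, where 0.257% of all genes in Be(2)-C and 0.0251% in IMR5-75 were called. At an unadjusted p under 0.05 there were 0 in Be(2)-C and 1 in IMR5-75, PEG10, and DESeq2's Wald test also called 0 in each.

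Whether the lines differed in their response was tested directly. For DAC, 4 of the 8 differed, where 6.19% of all genes were called: DLK1, NDN and PEG10 changed more in IMR5-75 (5.13% of all genes) and MKRN3 changed more in Be(2)-C (1.06% of all genes). The difference, IMR5-75 minus Be(2)-C, was 2.09 ± 0.46 for DLK1 (adjusted p = 0.00625), 2.49 ± 0.68 for PEG10 (adjusted p = 0.0285) and -2.19 ± 0.65 for MKRN3 (adjusted p = 0.0465). NDN, with 0 counts in IMR5-75 DMSO, had an adjusted p of 0.0159. For both drugs, 5 of the 8 differed, where 11.1% of all genes were called, and MEG3 joined these 4 at 2.62 ± 0.56 (adjusted p = 0.00327). For PEG10 and MEG3, with few counts in untreated IMR5-75, the SE can understate the error. The DLK1, PEG10, NDN and MKRN3 calls for DAC each ended without at least 1 library, with adjusted p up to 0.0724, 0.195, 0.0915 and 0.249. The PEG10 difference for DAC fell to 1.61 without IMR5-75 DMSO library 2, and without DMSO library 1 no reference count was left. For both drugs, the DLK1 call ended without IMR5-75 DMSO library 1 (0.0614), and the PEG10 call without DMSO library 2 (0.124, difference 1.69 in place of 2.56) or DAC+EPZ library 1 (0.0557). The MKRN3 call ended in 9 of 12 alternatives for DAC and in 10 of 12 for both drugs, DESeq2's Wald test among them in each case. For both drugs it ended without each of the 8 libraries. The MEG3 difference stayed called at 1.73 without IMR5-75 DMSO library 2 (0.0396). For EPZ-6438, 0 of the 8 differed, where 1.19% of all genes were called, and at an unadjusted p under 0.05 the count is 1, PEG10. For MEST, NNAT and PEG3 the lines were not called different under any treatment.

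**Figure D4:**
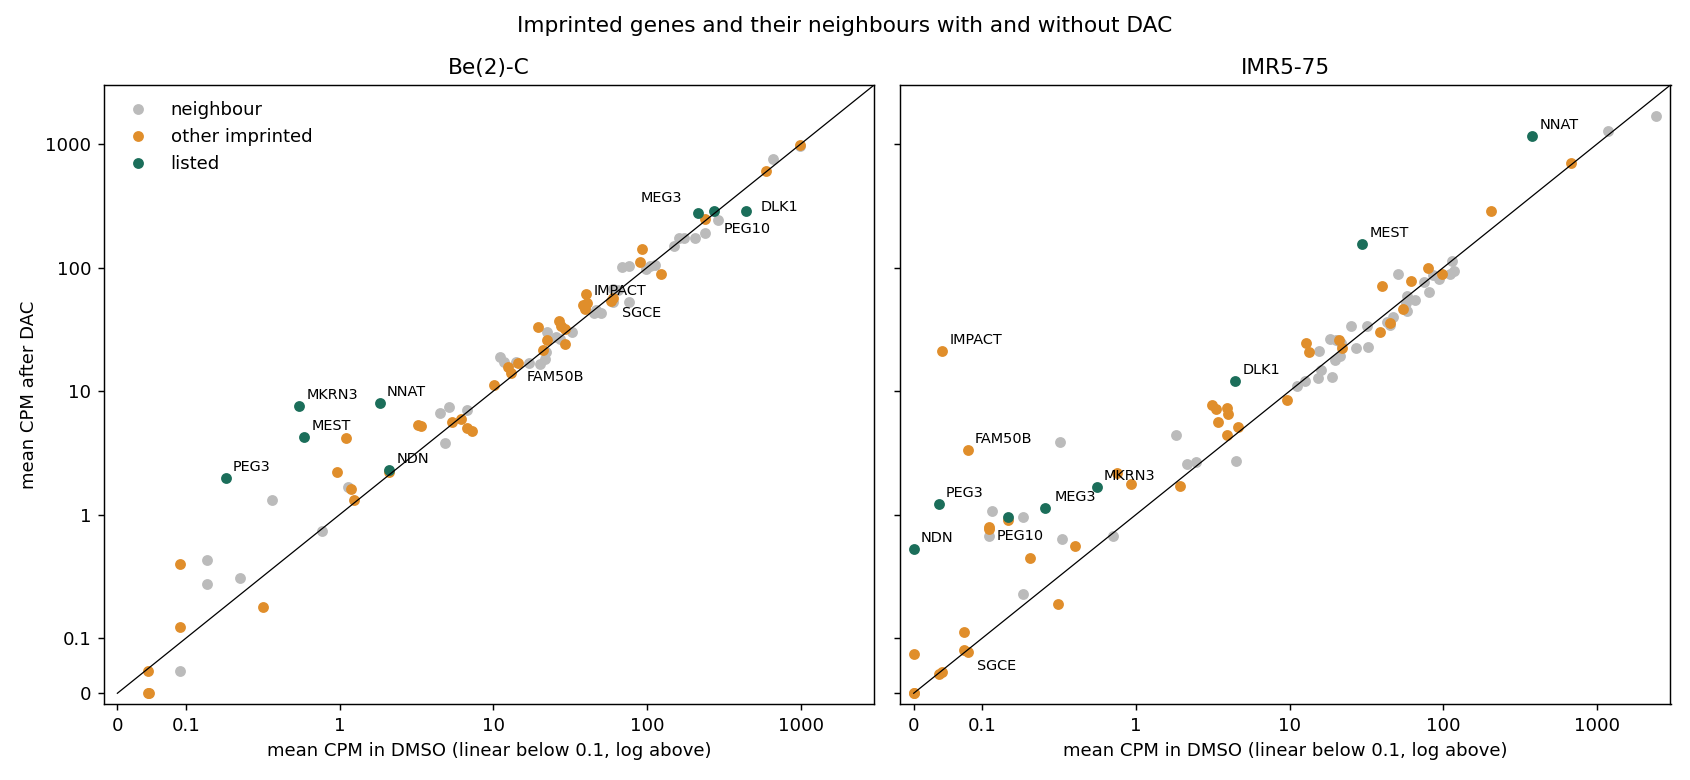
Mean CPM (2 libraries) after DAC against mean CPM in DMSO for the 8 tested listed genes, 40 other imprinted genes and 43 neighbours that are not imprinted, on axes linear below 0.1 and logarithmic above, with the line of equal levels. In IMR5-75 IMPACT and FAM50B lie far above that line, from under 0.1 CPM to 21.1 and 3.33 CPM, and SGCE lies on it.

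A wider list of 82 other imprinted genes, of which 65 were in the table and 40 were tested, gave the setting. After DAC, 4 rose and 1 fell in Be(2)-C and 16 rose and 1 fell in IMR5-75, beside the 3.73% and 19.9% of all genes called higher. After EPZ-6438, 6 rose in Be(2)-C and 0 in IMR5-75, beside 5.35% and 1.63% of all genes called higher. After both, 8 rose and 1 fell in Be(2)-C, beside 13.2% of all genes higher and 10.4% lower. In IMR5-75, 17 rose and 2 fell after both, beside 25.7% higher and 20.4% lower. Their median log2 change after DAC was 0.13 in Be(2)-C and 0.38 in IMR5-75. After DAC, the 43 tested neighbours of the 5 regions that are not imprinted gave 4 higher and 2 lower in Be(2)-C. In IMR5-75 they gave 7 higher and 8 lower, and the medians were -0.01 and -0.02. Over all genes, 3.73% were higher and 2.97% lower in Be(2)-C, and 19.9% higher and 13.8% lower in IMR5-75.

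Of these, IMPACT, which encodes a regulator of the kinase GCN2, was silent in untreated IMR5-75, with 1 count, and rose to 21.1 ± 3.7 CPM after DAC and 14.9 and 17.1 CPM after both, ratios of 534 (95.4 to 21118) and 407 (72.6 to 16092), both called (adjusted p = 2.16e-12 and 4.64e-12). Both stayed called without either DMSO library, and the fitted log2 changes of 8.73 and 8.33 became 7.81 and 7.45 without library 1 and 10.99 and 10.59 without library 2, which leaves no reference count. Its level after EPZ-6438 was 0.197 ± 0.17 CPM, and in Be(2)-C it stood at 40.5 ± 3.5 CPM in DMSO and 52.0 ± 0.84 CPM after DAC. FAM50B, a retrogene, held 2 counts in untreated IMR5-75 and rose to 3.33 ± 0.70 CPM after DAC, a ratio of 42.0 (11.3 to 352, adjusted p = 4e-07), while Be(2)-C had 14.4 ± 0.90 CPM in DMSO. NAP1L5, a retrogene related to nucleosome assembly proteins, rose from 12.8 ± 0.47 to 24.5 ± 3.7 CPM (adjusted p = 1.18e-04), and INPP5F, a phosphoinositide phosphatase, from 39.7 ± 3.0 to 70.8 ± 6.3 CPM (adjusted p = 2.52e-05). LRRTM1, a synaptic adhesion protein, rose from 3.13 ± 0.57 to 7.72 ± 1.2 CPM (adjusted p = 6.15e-04). PLAGL1, a zinc finger gene of the growth-controlling imprinted network, rose from 3.89 ± 0.86 CPM in IMR5-75 DMSO to 11.6 ± 2.2 CPM under both drugs (adjusted p = 1.23e-04). ZDBF2 rose in Be(2)-C from 93.3 ± 5.2 to 151 ± 2.9 CPM under both drugs (adjusted p = 4.83e-04), and GRB10, an adaptor that dampens insulin signalling, rose by 2.31 ± 0.38 after EPZ-6438 (adjusted p = 4.84e-04; 2.89 without DMSO library 2). RB1, whose imprint favours one copy only in part, fell in Be(2)-C under both drugs, from 123 ± 2.7 to 85.3 ± 2.2 CPM (adjusted p = 0.00312).

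Among 14 tested factors that keep or read imprints, UHRF1 fell in all 6 comparisons with DMSO, by 0.58 ± 0.11, 0.81 ± 0.11 and 1.46 ± 0.11 on the log2 scale in Be(2)-C after DAC, EPZ-6438 and both, and by 1.00 ± 0.11, 0.49 ± 0.11 and 1.27 ± 0.11 in IMR5-75. The IMR5-75 EPZ-6438 call (adjusted p = 0.0188) ended without DMSO library 2 (0.227), EPZ-6438 library 1 (0.133) or EPZ-6438 library 2 (0.172). DNMT1 was called lower in 4 of the 6, by 0.44 ± 0.13 after EPZ-6438 (adjusted p = 0.0290) and 0.52 ± 0.13 after both (0.00426) in Be(2)-C and by 0.45 ± 0.12 after DAC (0.00836) and 0.69 ± 0.13 after both (1.16e-04) in IMR5-75. It was not called after DAC in Be(2)-C (0.437) or after EPZ-6438 in IMR5-75 (0.281). The DNMT1 calls in Be(2)-C ended without DMSO library 1 (0.116), DMSO library 2 (0.159) or EPZ-6438 library 2 (0.291) for EPZ-6438 and without DAC+EPZ library 1 (0.0581) for both, and the IMR5-75 DAC call without DMSO library 1 (0.0876) or DAC library 2 (0.0841). CTCFL, the germline paralogue of the insulator protein CTCF, rose after DAC from 0.284 ± 0.19 to 8.93 ± 0.71 CPM in IMR5-75 (adjusted p = 4.24e-09), with a log2 change of 4.97 ± 0.38 that was 5.81 without DMSO library 2. The Be(2)-C libraries went from 2 counts to 41 after DAC, a ratio of 19.6 (5.09 to 167, adjusted p = 5.37e-04). Without DMSO library 2 the fitted log2 change there was 3.22 in place of 4.14, and without library 1 no reference count was left. What these factors have to do with the listed genes was not tested.

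The genes most like each listed gene were sought by Pearson r of log2 CPM over the 16 libraries, after each line's own mean was taken off, among the 12644 genes whose log2 CPM averaged 1 or more. The libraries share their treatment, so r mostly reads the split by DAC, and no p is given. MEST and NNAT were each other's closest match at r = 0.98, before PYGL for MEST (r = 0.97) and SIDT2 for NNAT (r = 0.96). MKRN3 was closest to H19 of 11p15 (r = 0.97), which in Be(2)-C went from 1.82 to 120 CPM and in IMR5-75 from 13.5 to 46.1 CPM after DAC, and to ZNF323 (r = 0.96). PEG3 was closest to DCAF4L1 and ZNF589 (both r = 0.93). NDN, whose changes were in IMR5-75, was closest to COL9A2 (r = 0.98), DLK1 to SEPT6 (r = 0.96) and CCDC165 (r = 0.95), MEG3 to TEP1 and LOC253039 (both r = 0.95) and PEG10 to RNLS (r = 0.96) and CYB561 (r = 0.95).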

How the data were processed

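Total RNA depleted of ribosomal RNA was sequenced as directional 50-base single-end libraries, per the labels' protocols. The authors deposited 1 table of raw read counts per gene, not normalized. The submitters' processing notes name TopHat2 2.0.5, HTSeq 0.5.3p9, DESeq2 and hg19. The annotation and the strand and overlap settings were not given in the sources used here; counts of overlapping and antisense genes are uncertain. Groups were taken from the sample labels.

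The counts were tested in R 4.3.3 with edgeR 4.0.16 (quasi-likelihood, filterByExpr, TMM scaling, 16 libraries in 8 groups, 8 residual degrees of freedom) in 16 comparisons, with Benjamini-Hochberg adjustment over 15967 genes. The biological coefficient of variation was 9.88%. All 10 listed genes are named, and a gene of the other imprinted or neighbour lists could be named where a treatment was called against DMSO. UBE3A, IPW, SGCE, RTL1, MEG8, SNORD113-1, SNORD114-1, BEGAIN, SNURF, ZIM2 and CTCFL fall outside that rule and were chosen after their values were seen. Nearest genes are the 2 with the highest r, of which 1 is not reported here. Ratios against 1 to 3 counts carry exact 95% intervals that cover counting error only, and folds against 0 use 3 counts per group. Alternatives were DESeq2 1.42.0 size factors and Wald test, no filter, a replicate block, separate fits of the lines and omission of single libraries. With 1 library left in a group, it was assumed to vary like the others. The code was tested on simulated data. Members and lists were chosen with earlier results of these data known. Replicate libraries differed beyond sampling noise in every group.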

Additional observations from a re-analysis of the deposited data

Results flagged for a closer look

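The lines differed in their response in 9 tests of the difference itself (edgeR's quasi-likelihood test, adjusted over all genes tested). For DAC these were DLK1 (adjusted p = 0.00625), NDN (0.0159) and PEG10 (0.0285), which changed more in IMR5-75, and MKRN3 (0.0465), which changed more in Be(2)-C. For both drugs they were MEG3 (0.00327), NDN (0.00601), DLK1 (0.00769) and PEG10 (0.0166), which changed more in IMR5-75, and MKRN3 (0.0454), which changed more in Be(2)-C. For NDN, MEG3 and PEG10 the untreated IMR5-75 libraries held 0 to 7 counts. Without IMR5-75 DMSO library 2 the difference in the change under both drugs was 1.73 for MEG3 (adjusted p = 0.0396) and 1.69 for PEG10 (0.124). The PEG10 difference also lost its call without DAC+EPZ library 1 of IMR5-75 (0.0557), and the DLK1 difference without IMR5-75 DMSO library 1 (0.0614). The MKRN3 difference under both drugs was lost without each of the 8 libraries in turn. By DESeq2's Wald test the MKRN3 differences under DAC and under both drugs were lost. What lies behind these differences was not tested.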

How the results depend on the processing

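Of 51 calls among the 8 tested genes, 30 held under every alternative, 21 were lost in at least 1 and 0 changed sign. The number of listed genes called ranged, with 1 library left out, from 0 to 0 for EPZ-6438 in Be(2)-C (1 with all libraries), 3 to 5 for both drugs in Be(2)-C (5), 0 to 1 for EPZ-6438 in IMR5-75 (0), 1 to 4 for the line difference under DAC (4) and 3 to 4 for that under both drugs (5). The counts for DAC in Be(2)-C, and for DAC, both drugs and both against EPZ-6438 in IMR5-75, were also lower without some single libraries. For both drugs against DAC in IMR5-75 the count was 1 in place of 0 without the filter and by DESeq2's Wald test, and the cause was not tested. Over all genes, leaving out a library lowered the calls from 1069 to 297 to 583 for DAC in Be(2)-C, from 1630 to as few as 578 for EPZ-6438, from 3777 to as few as 2097 for both, and from 316 to as few as 32 for EPZ-6438 in IMR5-75, where the other settings gave 211 to 740. For both drugs against DAC the calls went from 869 to as few as 314 in Be(2)-C and from 309 to as few as 49 in IMR5-75 (other settings 164 to 541), and for both against EPZ-6438 from 672 to as few as 278 and from 6005 to as few as 3737. For the interaction they went from 41 to 16 to 51 (other settings 36 to 109) and from 4 to 1 to 10 (other settings 1 to 84). For the line difference they went from 190 to as few as 48 under EPZ-6438 (other settings 142 to 425) and from 1766 to as few as 1066 under both. With a library left out, fewer samples were fitted. Replicate numbers did not pair the libraries (12 within-line group pairs, r from -0.250 to 0.136, 3 over 0.1). The replicate block left 4 listed genes called for DAC in Be(2)-C and ended, among the listed genes, only the MKRN3 line differences (adjusted p = 0.0558 and 0.0532). Of the other genes named with a change it ended that of BLCAP after DAC in IMR5-75 (0.0562). Genes with under 10 control counts are limited by depth.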
